A study of Danio rerio with 6 samples.

Results

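The genes described here encode the proteins of the cytosolic ribosome, which makes nearly all proteins of the cell, in zebrafish embryos injected with a morpholino against Ovo1 and in controls. A morpholino is an antisense oligomer, and Ovo1 is a zinc finger transcription factor. Genes were taken by name, as those whose single symbol in the array annotation starts with rpl or rps followed by a digit or by the letters of the stalk and rpsa genes. The S6 kinases and the genes rps27l and rps19bp1 were left out by that rule. It found 72 genes among the 8793 named genes of the array, 45 of the large subunit and 27 of the small subunit, on 76 probe sets. Where a gene had more than 1 probe set, the brightest stood for it.

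Total RNA of whole embryos was measured on Affymetrix arrays in 3 control and 3 Ovo1 morphant samples, 1 array each, all AB strain embryos, 12 h old (6 somites). The labels give the genotype of the morphants as Ovo1 morphant, sox10(7.2):gfp, a reporter that marks neural crest, and that of the controls only as control, while the design text can be read as calling both groups transgenic and the sample descriptions call both wild type. The labels do not say whether controls were injected or how many embryos or clutches went into a sample. The p-values therefore reflect only how these 6 samples vary, and that variation may be technical. A morpholino acts in the whole embryo, and no probe set was named as an ovo gene, so the knockdown was not checked at the transcript level.

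The large subunit joins amino acids and holds the tunnel through which the new chain leaves, and the small subunit reads the messenger RNA. Ribosomal protein messages are among the most abundant of an embryo, and their translation is set together by the TOR pathway through a pyrimidine tract at their start. A few ribosomal proteins also have close paralogues that can take their place. The best studied is Rpl22l1, the paralogue of Rpl22, and in zebrafish the pair has been described as acting differently in the emergence of blood stem cells. Free Rpl5 and Rpl11, which form a particle with 5S ribosomal RNA, bind Mdm2, the ubiquitin ligase that degrades p53. In humans, loss of 1 copy of any of several of these genes causes Diamond-Blackfan anaemia.

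In the quantile-normalised fit with the intensity trend, 68 of 72 ribosomal protein messages had a 95% confidence interval within a 1.2-fold change of the controls. Of all named genes, 8.45% had such an interval. Nearly all of the 72 are among the brightest genes of the array. No share was taken over other genes of like brightness, so 8.45% is not a matched baseline. The 1.2-fold bound was chosen after the values were seen. The paralogue rpl22l1 was far outside it. It was 1.97-fold lower in morphants, at a log2 difference (morphant minus control, on log2(intensity + 16), ± SE) of −0.98 ± 0.06. Its canonical partner rpl22 stood at +0.07 ± 0.05. Of the other large-subunit genes, rpl10a and rpl3 fell by less, at −0.26 ± 0.05 and −0.22 ± 0.05. Of the 27 small-subunit genes 0 were called (limma, 0 with an unadjusted p under 0.05). Of all 72 genes 0 were called higher, and 4 had an unadjusted p under 0.05, where 23.9% of all named genes did. A gene is called where its Benjamini-Hochberg adjusted p over all 15502 probe sets is under 0.05. Where genes of a list are counted as rising or falling, those called higher or lower are meant. Called lower were 3 of 72 ribosomal protein genes, where 3.57% of all named genes and 3.12% of all probe sets were. Called higher were 0 of 72, where 3.23% of all named genes and 2.59% of all probe sets were. In either direction the share called was 6.80% of named genes and 5.72% of probe sets, so 3 of 72 (4.17%) is not above the background.

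**Figure D1:**
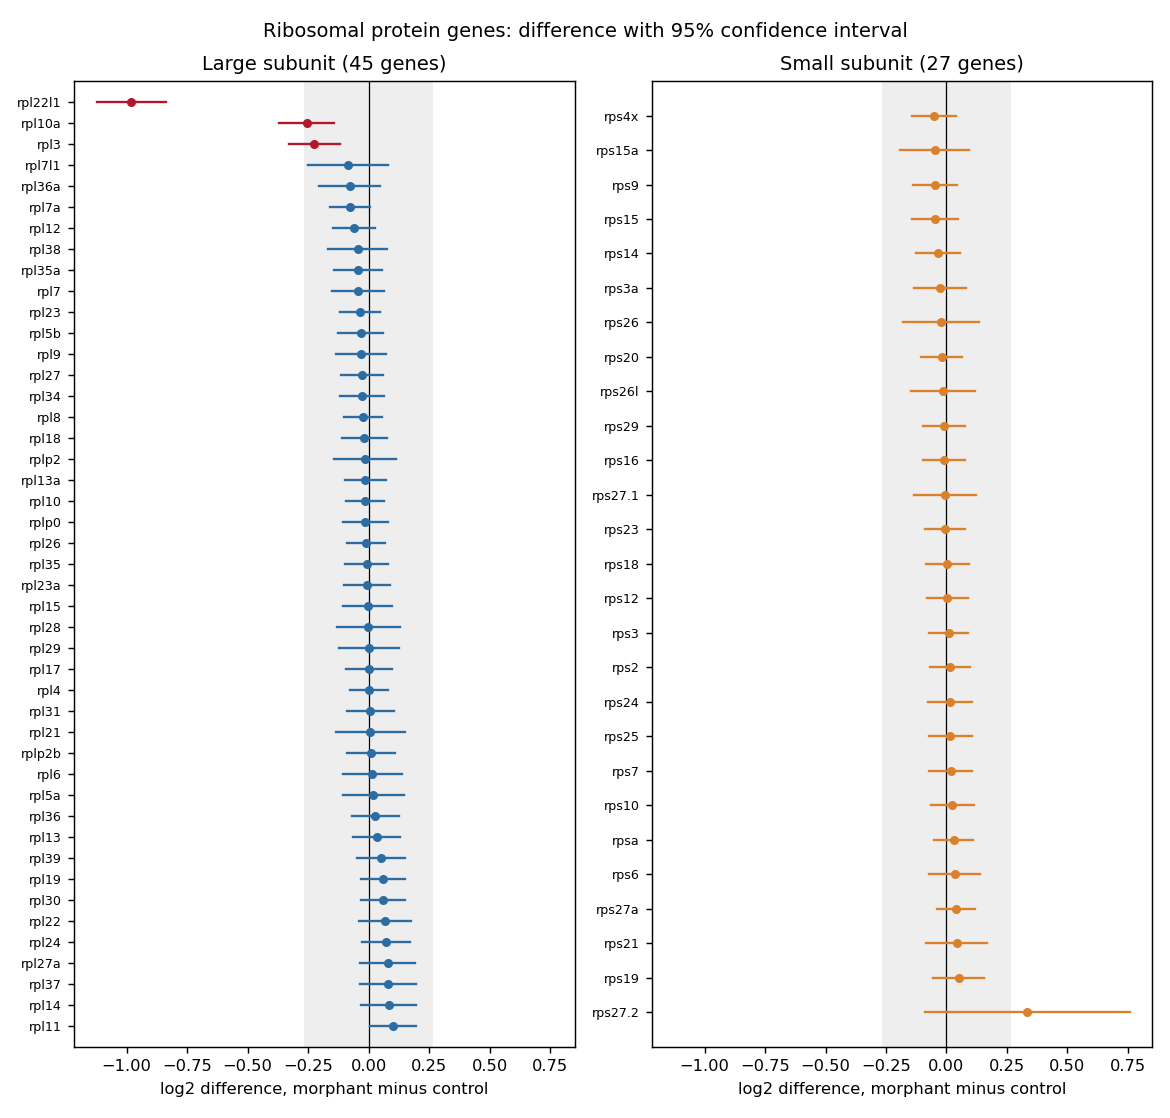
Log2 difference, morphant minus control, of the 72 ribosomal protein genes, large subunit on the left and small subunit on the right, with 95% confidence intervals (n = 3 arrays per group, limma). Red marks genes called at an adjusted p under 0.05, and the grey band spans a 1.2-fold change either way. The intervals of 68 genes lie inside the band, and rpl22l1 at −0.98 lies far outside it.

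In rpl22l1 the 3 control arrays read 5119, 5089 and 5562 as deposited intensities and the 3 morphant arrays 2548, 2738 and 2435. On the normalised log2 scale the controls stood at 12.34, 12.29 and 12.41 and the morphants at 11.41, 11.39 and 11.30. The groups were far apart, and every morphant array lay below every control array by many times the spread within a group (SD 0.06 in each, n = 3). The fit gave a 95% confidence interval of −1.12 to −0.84 and an adjusted p of 6.62e-05 (limma). Leaving out each array in turn kept the difference between −1.01 and −0.94, with an adjusted p of at most 0.00103. The genes rpl22l1 and rpl22 each had 1 probe set, so no second probe set could be set beside either. RNA of whole embryos cannot tell fewer cells that carry a message from less of it in each cell.

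For rpl22 the controls read 12.97, 13.00 and 13.01 on the log2 scale and the morphants 13.00, 13.08 and 13.11. The groups overlapped in rpl22, which encodes the canonical protein on the outer face of the large subunit near the tunnel exit, and it did not pass the test (adjusted p = 0.470, limma). With the values as deposited its difference was −0.0056, so no direction holds for it. Within each array the log2 ratio of rpl22l1 to rpl22, taken from the mean of the controls, was 0.02, −0.06 and 0.05 in controls and −0.94, −1.04 and −1.17 in morphants. The ratio thus fell by 1.05 on the log2 scale (exact permutation test, two-sided, p = 0.1, the smallest that 3 against 3 arrays allow, and 0.225 adjusted over 9 pairs). With the values as deposited the difference in this ratio was −1.02.

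The gene rpl10a, whose protein lies in the mobile stalk at the side where spent transfer RNA leaves, read 13.46, 13.48 and 13.35 in controls and 13.13, 13.16 and 13.22 in morphants. All 3 morphants lay below all 3 controls (adjusted p = 0.0223, limma). It lost its call when control 1, control 2 or morphant 2 was left out (adjusted p up to 0.108), and with median centring or without the intensity trend.

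The gene rpl3, whose protein reaches from the outside of the large subunit to the site of peptide bond formation, read 13.75, 13.71 and 13.69 in controls and 13.42, 13.49 and 13.57 in morphants. All 3 morphants lay below the controls here too (adjusted p = 0.0289, limma). A second, dimmer probe set of rpl3 gave −0.30 ± 0.08, also with all 3 morphants below the controls, without passing the test (adjusted p = 0.0722, limma). It passed in a fit with the replicate number as a block (adjusted p = 0.00867, limma), where 10.6% of all named genes were called lower. The names of these 2 probe sets differ only in the suffix, so the second may not be independent of the first. The call of rpl3 was the less stable. It was lost when any 1 of the 3 controls or morphant 2 was left out (adjusted p up to 0.117), with the values as deposited, with median centring, with cyclic loess and without the intensity trend. Of the 3 called genes only rpl22l1 therefore kept its call in every alternative run.

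**Figure D2:**
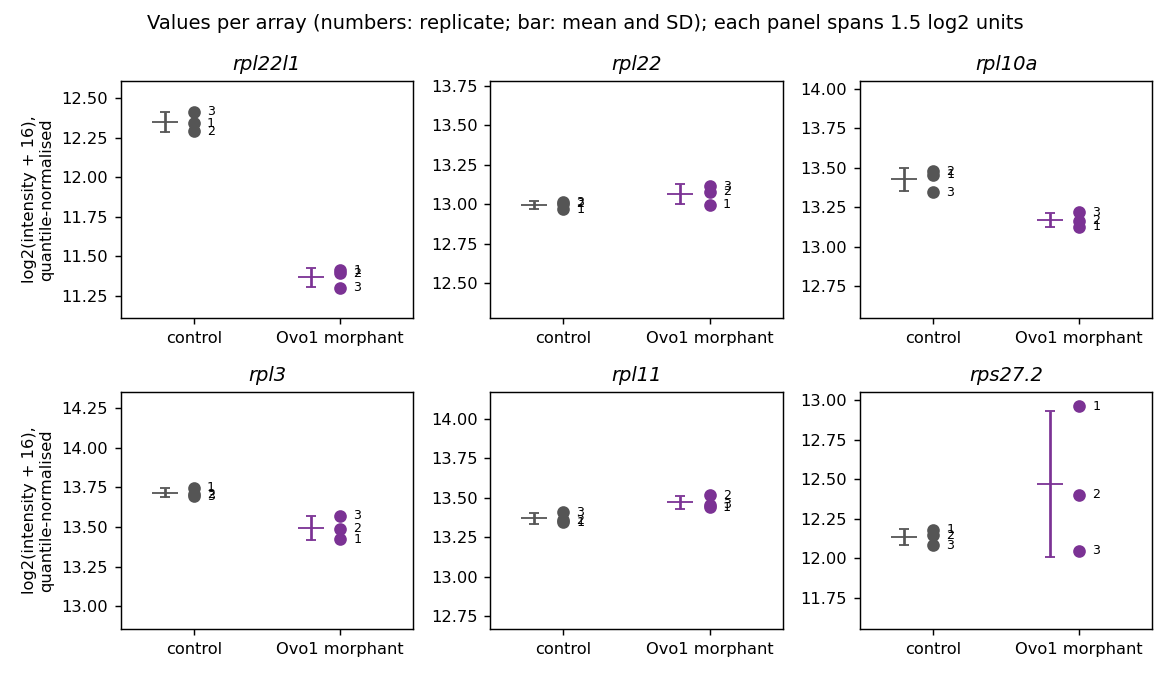
Quantile-normalised log2(intensity + 16) on each array for 6 ribosomal protein genes, controls in grey and Ovo1 morphants in purple, with the replicate number beside each point and the group mean and SD (n = 3) to the left. Each panel spans 1.5 log2 units. The groups separate in rpl22l1, rpl10a, rpl3 and by a small margin rpl11, they overlap in rpl22, and in rps27.2 the morphant arrays are spread over 0.91 log2 units.

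The 3 called genes and rps27.2 set aside, the remaining 68 genes ran from −0.085 (rpl7l1) to 0.0998 (rpl11), 36 below and 32 above 0. Among the lowest and highest of them were rpl36a (−0.08 ± 0.06), rpl27a (0.08 ± 0.05), rpl37 (0.08 ± 0.05) and rpl14 (0.08 ± 0.05), in each of which the groups overlapped. The ribosomal protein genes were measured with little spread. Their median SE was 0.042, against 0.12 over all named genes, and their median absolute difference 0.027, against 0.15. No comparison was made with other genes of like brightness. The SEs also depend on the fit. That of rpl36a was 0.056 here, 0.086 with median centring and 0.094 without the intensity trend. The count of intervals within a 1.2-fold change was not made in those other fits. All 3 morphants lay on one side of all 3 controls in 9 of 72 genes, where 28.9% of all named genes did so, 14.4% with morphants below and 14.5% with morphants above. Among the ribosomal protein genes these were, besides the 3 called, rpl7a (−0.08 ± 0.04) and rpl12 (−0.06 ± 0.04), with morphants below, and rpl11, rpl24, rpl30 and rps27a, with morphants above. Of these last 6 genes 0 passed the test (limma, adjusted p of at least 0.209, 1 of them with an unadjusted p under 0.05).

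The groups share replicate numbers, and arrays of the same number deviated together, so a fit with the number as a block was also made. In that fit 21.3% of all named genes were called, against 6.80% without the block. Among the ribosomal protein genes, each taken by its brightest probe set, the block called the same 3 genes and no other. With the block 10.6% of all named genes were called lower and 10.7% higher (9.83% and 8.82% of all probe sets, 18.6% in all). The blocked adjusted p was 1.77e-05 for rpl22l1, 0.00611 for rpl10a and 0.00762 for rpl3 (limma).

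The median difference was −0.0077 over the 45 large-subunit genes and 0.0023 over the 27 small-subunit genes, beside 0.0070 over all named genes. Taken per array as the median deviation from the control mean, the large subunit ran from −0.011 to 0.017 in controls and from −0.033 to 0.018 in morphants. The small subunit ran from −0.013 to 0.014 in controls and from −0.011 to 0.017 in morphants. Morphants and controls overlapped in both, and so did the subunits.

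These medians depend on how the arrays are scaled, because the ribosomal protein genes fill the bright end of the array. For 69 of the 72 genes the brightest probe set was among the 155 brightest of the array, and all 72 lay above the 95th percentile on every array. Quantile normalization gives every array the same values at each rank, so a shift shared by these genes is partly removed. The brightest named gene, the elongation factor eef1a1l1, shows this, with a difference of 0.00 and no spread at all because it held the top rank on each array.

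With the values as deposited, 58 of 72 genes (80.6%) lay below 0, with median centring 53 (73.6%), with cyclic loess 25 (34.7%) and with quantile normalization 39 (54.2%, where 48.6% of all named genes lay below 0). Of the 8793 named genes 4519 (51.4%) lay below 0 as deposited, 4397 with median centring and 4160 (47.3%) with cyclic loess. The share below 0 thus moved more among the ribosomal protein genes than among all named genes. The median over all 72 was −0.037 as deposited, −0.030 with median centring and 0.018 with loess, so its sign follows the scaling. Over all named genes the median was −0.0072 as deposited, −0.00021 with median centring and 0.013 with loess. As deposited, the ribosomal protein median stood at −0.13, 0.041 and −0.010 on morphants 1 to 3 and between −0.028 and 0.036 on the controls. Of the morphants, replicate 1 alone lay below the controls there, and morphants overlapped controls under each of the 4 scalings. The large-subunit median stayed below the small-subunit median under all 4, by 0.0054 to 0.010, beside an SD of that difference between replicate arrays of 0.012. With each array left out in turn it ran from −0.023, when morphant 2 was omitted, to −0.0061, when morphant 1 was. Intensities at this end of the range may also respond less than in proportion to the amount of RNA, which was not tested.

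**Figure D3:**
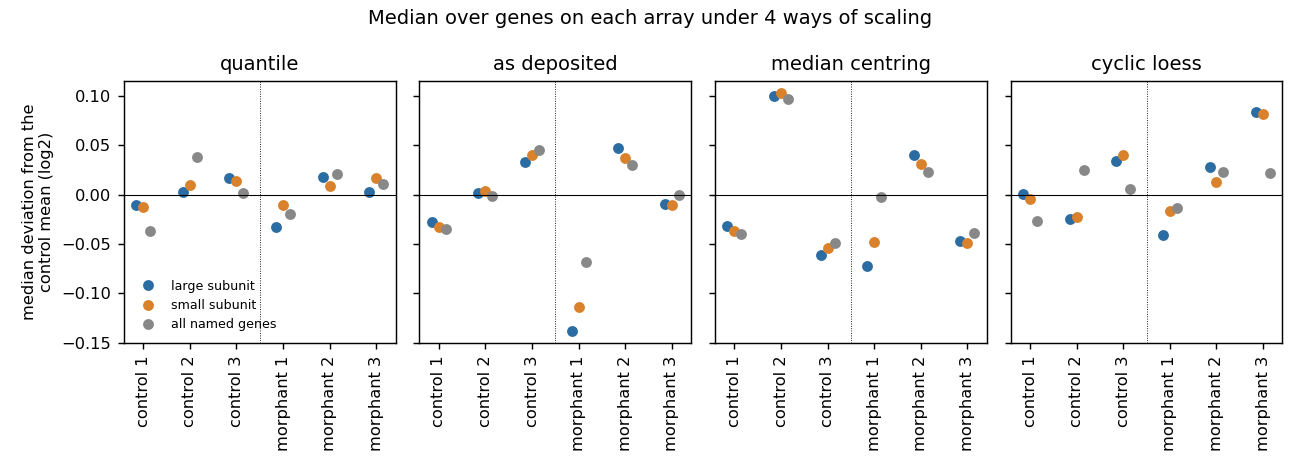
Median deviation from the control mean (log2) on each of the 6 arrays, over large-subunit genes (blue), small-subunit genes (orange) and all named genes (grey), under 4 ways of scaling the arrays. Morphants overlap controls in each panel, with morphant 1 as deposited the lowest at −0.14 for the large subunit.

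Grouped by place in the ribosome, the canonical genes listed for the rplp stalk, the tunnel exit and the head of the small subunit held 0 calls. The mobile stalk of rpl10a, which was called, is a different one and was not listed. The tunnel exit list does not hold rpl22. At the rplp stalk, which calls in translation factors, rplp0 stood at −0.01 ± 0.04, rplp2 at −0.02 ± 0.06 and its duplicate rplp2b at 0.01 ± 0.04. The 8 genes of the tunnel exit, among them rpl17, rpl26 and rpl31, ran from −0.010 to 0.058 and the 11 measured genes of the head of the small subunit, among them rps3, rps18 and rps20, from −0.047 to 0.051. Of these 8 and 11 genes 0 were called (limma, 0 with an unadjusted p under 0.05, where 23.9% of all named genes had one).

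Rpl5 and Rpl11 bind Mdm2, whose own message rose. The gene mdm2 read 8.71, 8.53 and 8.85 in controls and 11.77, 11.63 and 11.50 in morphants, a difference of 2.94 ± 0.11 (adjusted p = 9.53e-06, limma), with the groups far apart. Of the 3 genes whose proteins bind 5S RNA, rpl11 read 13.35, 13.36 and 13.41 in controls and 13.44, 13.52 and 13.46 in morphants. All 3 morphants lay just above the controls in rpl11, yet at 0.10 ± 0.04 it did not pass the test (adjusted p = 0.209, and 0.0861 with the block, limma). Its 95% confidence interval ran from 0.0054 to 0.19. The duplicates rpl5a and rpl5b stood at 0.02 ± 0.06 and −0.03 ± 0.04, with overlapping groups, and the sign of rpl5a turned with the values as deposited and with median centring.

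Of the zebrafish genes listed for those mutated in Diamond-Blackfan anaemia in humans, 17 were measured and 0 were called. In 1 of them, rpl11, the unadjusted p was under 0.05 (limma), as in 23.9% of all named genes. The 17 genes hold both rpl5a and rpl5b, and the paralogue rps26l beside rps26. They ran from −0.044 in rpl35a to 0.0998 in rpl11, with a median of −0.0077. The most often mutated of them, rps19, stood at 0.05 ± 0.05, and rps24, rps26 and rps7 at 0.01 ± 0.04, −0.02 ± 0.07 and 0.02 ± 0.04.

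Of the 3 paralogues measured, 1 fell, rpl22l1, and 2 were not called. They were taken as paralogues by their symbols, and whether each can take the place of its partner was not tested. The paralogue rpl7l1 read 11.85, 11.80 and 11.80 in controls and 11.87, 11.64 and 11.68 in morphants, and its partner rpl7 differed by −0.04 ± 0.05. The groups overlapped in rpl7l1 (−0.09 ± 0.07, adjusted p = 0.582, limma). The small-subunit paralogue rps26l stood at −0.01 ± 0.06 and rps26 at −0.02 ± 0.07, again with overlap. In rpl7l1 the ratio to the canonical gene differed by −0.04 between the groups and in rps26l by 0.0088, on the log2 scale, less than the SD of these ratios within a group.

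The 2 rps27 duplicates encode a zinc-binding protein of the small subunit. The gene rps27.2 read 12.18, 12.15 and 12.08 in controls and 12.96, 12.40 and 12.05 in morphants. The controls lay within 0.097 of each other, whereas the morphant arrays spanned 0.91, with 2 above the controls and Ovo1 morphant replicate 3 below them. Its difference of 0.33 ± 0.19 had the largest SE of all 72 genes and did not pass the test (adjusted p = 0.362, limma). It was 0.089 with morphant 1 left out and 0.55 with morphant 3 left out. The other duplicate, rps27.1, did not follow, at 13.24, 13.38 and 13.39 in controls and 13.26, 13.39 and 13.35 in morphants. Of its 3 probe sets the brightest gave −0.01 ± 0.06 and the others −0.05 ± 0.07 and −0.21 ± 0.08, the last of which passed with the block only (adjusted p = 0.172 without and 0.0204 with it).

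A related gene that the name rule leaves out, rps27l, rose. In humans it is induced by p53. It read 10.42, 10.29 and 10.37 in controls and 12.30, 12.36 and 12.31 in morphants, with the groups far apart (1.97 ± 0.07, adjusted p = 6.40e-06, limma). Its ratio to rps27.1 within an array rose by 1.97 on the log2 scale (exact permutation test, two-sided, p = 0.1, the smallest possible, 0.225 adjusted over 9 pairs). Its ratio to rps27.2 rose by 1.63, with the same p, and lay between 1.12 and 2.04 on the morphant arrays. For the other pairs of duplicates the ratio differed by 0.053 in rpl5a over rpl5b (p = 0.3, 0.45 adjusted) and by 0.024 in rplp2b over rplp2 (p = 0.7, 0.9 adjusted, exact permutation tests), with overlap in both.

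**Figure D4:**
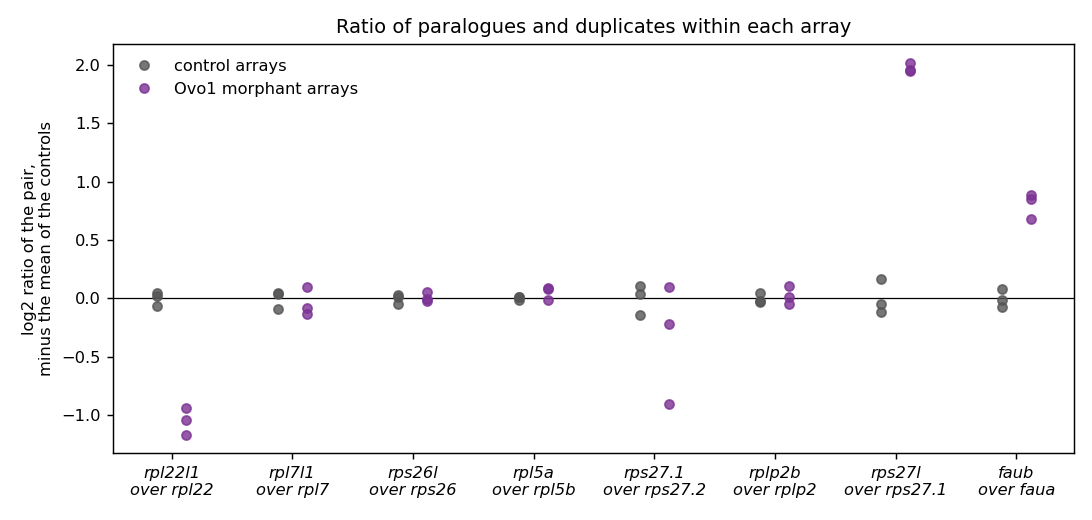
Log2 ratio of the 2 genes of a pair within each array, minus the mean of that ratio over the 3 controls, for controls (grey) and Ovo1 morphants (purple). The ratio of rpl22l1 to rpl22 lies between −0.94 and −1.17 in morphants, that of rps27l to rps27.1 between 1.95 and 2.02, and that of faub to faua between 0.68 and 0.89. In the other 5 pairs morphants and controls overlap, and in rps27.1 over rps27.2 morphant 1 stands at −0.90.

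Ribosomal proteins that do not carry an rpl or rps name held another split between duplicates. The fau genes encode the small-subunit protein S30 fused to a ubiquitin-like protein. The duplicate faub read 10.06, 10.35 and 10.23 in controls and 10.83, 11.18 and 11.17 in morphants. It was 1.80-fold higher in morphants (0.85 ± 0.12, adjusted p = 0.00495, limma), with all 3 morphants above the controls, and kept its call without each array in turn (adjusted p up to 0.0342). The other duplicate, faua, stood at 0.04 ± 0.06, with overlap, and changed sign with the values as deposited. The ratio of faub to faua rose by 0.81 on the log2 scale (exact permutation test, p = 0.1, 0.225 adjusted over 9 pairs), a pair chosen after its values were seen. The scaffold protein rack1, on the head of the small subunit, stood at −0.03 ± 0.04.

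Genes that act with the ribosome were also called, in both directions, beside 3.23% higher and 3.57% lower among all named genes and a median over them of 0.0070. A further list holds translation factors taken as sharing the pyrimidine tract with ribosomal proteins, though the tract was not looked for in their sequences. In it 5 of 24 had an unadjusted p under 0.05 (limma), where 23.9% of all named genes did. Of the 24, with a median of 0.03, 0 rose and 2 fell. Both are subunits of the exchange factor that reloads the elongation factor eEF1A. The gene eef1b2 read 12.73, 12.72 and 12.76 in controls and 12.32, 12.22 and 12.27 in morphants (−0.46 ± 0.05, adjusted p = 0.00139, limma). The groups did not overlap in it, and its call held without each array in turn (adjusted p up to 0.0151). The gene eef1g stood at −0.20 ± 0.04 (adjusted p = 0.0403), and its call ended without any array but Ovo1 morphant replicate 1 (adjusted p up to 0.167).

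Of 81 ribosome biogenesis genes 6 fell and 3 rose, with a median of −0.08. An unadjusted p under 0.05 was found in 22 of the 81 (limma), where 23.9% of all named genes had one. Of the genes for the small subunit's assembly, riok1, a kinase of late maturation, read 7.85, 7.91 and 7.91 in controls and 6.89, 6.65 and 6.77 in morphants (−1.13 ± 0.12), and dimt1l, which methylates 18S RNA, differed by −1.09 ± 0.16. All morphants lay below all controls in both. The size of these falls depended on the pseudocount. With pseudocounts of 1 and 64 riok1 stood at −1.25 and −0.86 and dimt1l at −1.26 and −0.77, with both calls held. The processome gene utp23 stood at −0.76 ± 0.12. Lesser falls were those of utp15 (−0.40 ± 0.09), wdr46 (−0.43 ± 0.10) and the large-subunit assembly gene mrto4 (−0.49 ± 0.11). In the other direction, rrn3, an initiation factor of RNA polymerase I, rose by 0.91 ± 0.10, utp4 by 0.50 ± 0.07 and riok2 by 0.47 ± 0.10. The calls of riok1, dimt1l, utp23 and rrn3 held without each array in turn. That of utp4 ended without control replicate 3 (adjusted p = 0.0579), and those of utp15, wdr46, mrto4 and riok2 ended without any array but Ovo1 morphant replicate 1 (adjusted p up to 0.167).

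Of 59 mitochondrial ribosomal proteins, which are encoded separately and make up another ribosome, 4 rose and 1 fell, with a median of 0.09. The 4 were mrpl57 (0.54 ± 0.09), mrpl36 (0.46 ± 0.10), mrps30 (0.44 ± 0.10) and mrpl12 (0.43 ± 0.08), and the 1 was mrps34 (−0.52 ± 0.12). Each of these calls ended without at least 2 of the 6 arrays, and 0 genes rose once control 3 or morphant 2 was left out. Of the 59 genes 14 had an unadjusted p under 0.05 (limma), where 23.9% of all named genes did. In the list of TOR pathway and S6 kinase genes, 13 of 21 were measured, without rptor, rictora, rictorb and tsc2. An unadjusted p under 0.05 was found in 6 of the 13 (limma). In that list 1 of 13 fell, the TOR complex subunit mlst8 (−2.07 ± 0.14). There 1 rose, rps6ka3a (1.17 ± 0.14), which was listed by its S6 kinase name and not as a gene of the TOR pathway. Both calls held without each array in turn. The gene mlst8 was dim in morphants, at 5.79, 5.97 and 6.11, with its lowest value at percentile 26.4 of its array. The size of its fall therefore depended on the pseudocount, at −2.39 with 1 and −1.49 with 64. With its 2 probe sets averaged it was −1.84, and the call held in each of these runs. With the block, 3 translation factors fell and 2 rose, 15 biogenesis genes fell and 4 rose, and 3 mitochondrial genes fell and 12 rose. Of the TOR and S6 kinase genes 1 fell and 3 rose. In that fit 10.6% of all named genes fell and 10.7% rose. Without Ovo1 morphant replicate 1, 19 biogenesis genes fell, while the share of all named genes called in either direction went from 6.80% to 13.0%.

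**Figure D5:**
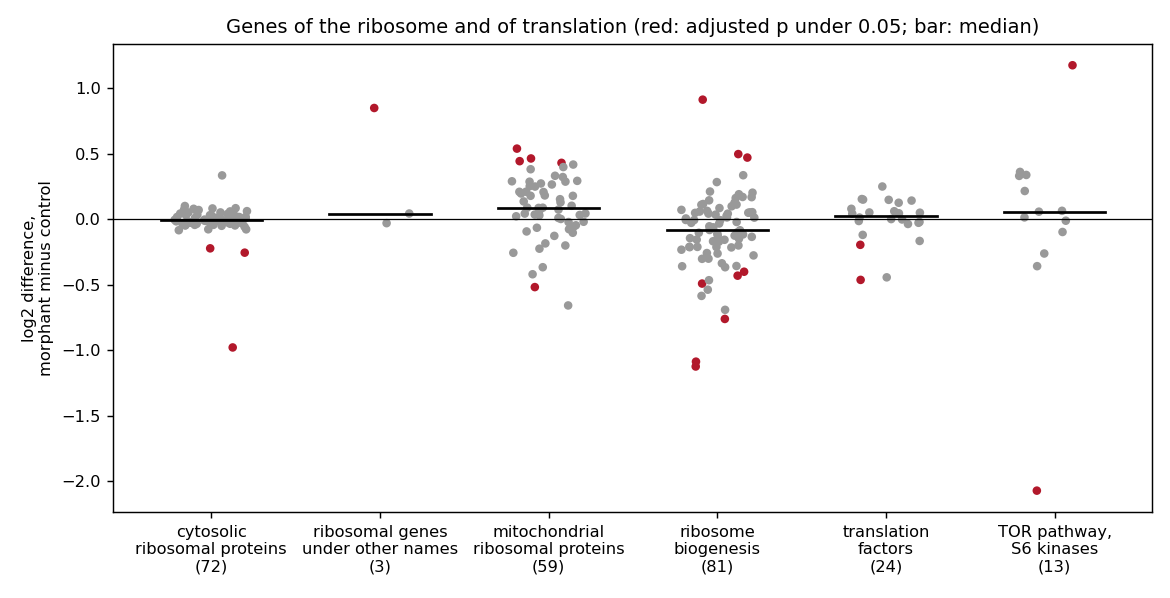
Log2 difference, morphant minus control, of each measured gene in 6 lists, with the number of genes in brackets. Red points are called at an adjusted p under 0.05 (limma) and bars are medians. Cytosolic ribosomal proteins lie within 0.1 of 0 apart from rpl22l1, rpl10a, rpl3 and rps27.2. Biogenesis genes span −1.13 to 0.91, and the list of TOR and S6 kinase genes −2.07 to 1.17.

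The array medians lay between 133 and 154 as deposited. Of 26 measured markers of 8 embryonic cell types, 24 lay above the median on all 6 arrays, and 5 fell and 0 rose, where 3.57% of all named genes fell. With the block 10 fell and 0 rose, all 4 neural crest markers among them, where 10.6% of all named genes fell. Those that fell without the block were the neural genes sox2, sox19a and pax6a, the epidermal gene tp63 and the neural crest transcript crestin. The other 3 epidermal markers, the keratins krt4, krt5 and krt18a.1, stood at 0.05 ± 0.04, 0.03 ± 0.06 and 0.04 ± 0.04. The log2 ratio of the 3′ to the 5′ control probe set of gapdh, a measure of RNA integrity, was −0.79, −0.49 and 0.16 in controls and 0.01, 1.34 and 1.32 in morphants. That of the actin control was 3.88, 3.64 and 4.01 in controls and 3.87, 4.22 and 4.27 in morphants. Both ratios overlapped between the groups and were higher on morphants 2 and 3 than on any control, and their part in the results was not tested. The difference of rpl22l1 within numbered pairs was −0.93 in the pair with morphant 1 and −0.90 and −1.11 in the pairs with morphants 2 and 3.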

How the data were processed

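Intensities per probe set on a linear scale were deposited by the authors, who used PLIER (Affymetrix Expression Console 1.1), as the submitters' processing notes record; no source used here gives its settings. Groups and replicate numbers come from the sample titles. Of 15617 probe sets, 115 control probe sets were left out and 15502 tested, with no filter. Names come from the platform annotation, and probe sets that list more than 1 symbol stayed unnamed. The array medians of log2(intensity + 16) ranged over 0.19, above a limit of 0.1, so arrays were quantile-normalized. The test was that of limma 3.58.1 (R 4.3.3; lmFit, then eBayes with an intensity trend), and its p-values were adjusted by Benjamini-Hochberg over the 15502 probe sets. The number of arrays limits the precision.

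The members, the gene lists and the tests were chosen with earlier results of these data known. Named genes are the called members, the 6 members with the highest and the 6 with the lowest difference, the paralogues and duplicates with their partners, the stalk, 5S and Diamond-Blackfan genes, and called members of other lists. Other genes were named as examples of a range, or with their values seen, among them faua, eef1a1l1 and the genes whose groups do not overlap. The gene rplp2b was taken as a duplicate of rplp2. Deviations from the group means correlated between arrays of the same number (r = 0.58, 0.46 and 0.54 over all probe sets, and 0.50, 0.04 and 0.22 over the members). Each r over all probe sets was above 0.1, the limit at which the numbers count as pairing the samples. Pair ratios were tested by exact permutation of the arrays. The fit was tested on simulated data. The planned promoter and protein sequence descriptions were not made, as no such table was used here. The alternatives tried were 3 other scalings (values as deposited, median centring, cyclic loess), pseudocounts of 1 and 64, leaving out dim probe sets, no trend, robust estimation, the replicate block, averaging the probe sets of a gene, and omitting each array in turn. Figures were drawn with matplotlib 3.10.9.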

Additional observations from a re-analysis of the deposited data

How the results depend on the processing

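In every alternative run rpl22l1 stayed lower in morphants and past the threshold. Its difference lay between −1.03 (values as deposited) and −0.94 (without Ovo1 morphant replicate 3). Every run used the same single probe set of rpl22l1, so the runs do not check that probe set. The ratio to rpl22 was not recomputed in every run, and it fell in the settings given next. The ratio of rpl22l1 to rpl22 was −1.02 as deposited, −1.05 and −1.04 with pseudocounts of 1 and 64, and −1.05 with the replicate block (exact sign-flip p = 0.25, the smallest 3 pairs allow). The number of ribosomal protein genes called lower was 3 in the quantile-normalised fit, 2 as deposited, 2 with cyclic loess and 1 with median centring. It was 1 without the trend, and from 1 to 3 when each array was omitted. The number called higher was 0 throughout. The probe sets called numbered 402 (higher) and 484 (lower), and the replicate block raised these to 1367 and 1524. When each array was omitted in turn they ran from 146 to 830 and from 123 to 883. The replicate block changed no call among the ribosomal protein genes, each taken by its brightest probe set. It added calls for dimmer probe sets of rpl3 and rps27.1 (adjusted p = 0.00867 and 0.0204, limma). Among the related lists, mitochondrial genes called higher numbered 1 and biogenesis genes called lower 3 with median centring, 2 and 4 as deposited, and 12 and 15 with the replicate block. With each array omitted they ran from 0 to 6 and from 3 to 19. The percent of named genes called moved too, from 6.80% to 5.27% with median centring, 5.22% as deposited and 21.3% with the replicate block, and between 2.14% and 13.0% with each array omitted. The large-subunit median was −0.041 as deposited, −0.034 with median centring and 0.016 with cyclic loess, and the small-subunit median −0.033, −0.026 and 0.022. Without each array in turn they ran from −0.018 to 0.0083 and from −0.0015 to 0.014. Signs were compared gene by gene for 34 of the members only, so the lists below are not complete. Over all members, 58 lay below 0 as deposited, 53 with median centring and 25 with cyclic loess, against 39 with quantile normalization. The share of all named genes below 0, given above, moved less. Within the 34, the scaling turned the sign of some that were near 0 and not called. As deposited these were rpl22 (−0.0056), rpl5a (−0.036), rplp2b (−0.023), rps7 (−0.028), rps10 (−0.024), rps19 (−0.0097), rps24 (−0.033) and rpl31 (−0.032), with faua at −0.024. With median centring they were rpl5a (−0.029), rplp2b (−0.016), rps7 (−0.021), rps10 (−0.017), rps19 (−0.0027), rps24 (−0.026), rpl15 (0.0027) and rpl31 (−0.025), with faua at −0.017, and with cyclic loess rplp2 (0.0087), rplp0 (0.047), rpl15 (0.054) and rpl26 (0.039). Without each array in turn the sign also turned in rpl15 (−0.038 to 0.029), rpl18 (−0.037 to 0.0014), rpl31 (−0.017 to 0.031), rpl35 (−0.032 to 0.0036), rpl5a (−0.014 to 0.064), rplp0 (−0.035 to 0.019), rplp2 (−0.067 to 0.015), rplp2b (−0.011 to 0.048), rps26 (−0.068 to 0.054), rps26l (−0.046 to 0.043), rps27.1 (−0.054 to 0.030) and rps29 (−0.027 to 0.0027). The cause was not tested, beyond the construction of quantile normalization described above. Bright signal and 3 arrays per group limit what a shared shift of a few percent could show.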
